A study of Mus musculus with 6 samples.

Results

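The phagocyte NADPH oxidase is the enzyme with which macrophages and neutrophils make superoxide, and 5 of its genes are described here: Cybb and Cyba for the membrane core, Ncf1 and Ncf4 for the cytosolic regulators, and Rac2 for the small GTPase that activates it. They were taken by gene symbol from the 55487 gene identifiers counted, and all 5 were found and passed the filter on low counts. RNA came from mouse hearts of the C57BL/6 strain, from non-myocyte cells enriched with beads against Cd11b after tissue digestion. The KO pools carried the Egfr mKO genotype, labelled EGFR -/- and myeloid-specific, and the WT pools carried floxed Egfr (Egfr f/f) with no deletion labelled. There were 3 pools of hearts in each group, and the labels list 5 animals in each pool except KO replicate 3, which lists 6. Each pool was 1 library and is 1 replicate, so the tests weigh differences against the spread among pools of hearts, not among single mice. The labels and protocols name neither the Cre line that deletes Egfr nor the age of the mice.

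In resting phagocytes the oxidase is kept apart: the membrane holds a heterodimer of gp91phox (Cybb), which carries the electrons, and p22phox (Cyba), which stabilises it and docks the regulators. On stimulation the organiser p47phox (Ncf1) is phosphorylated and moves to the membrane with p40phox (Ncf4), which reads phosphoinositides of the phagosome, and Rac binds GTP to switch on electron transfer. Superoxide and the oxidants made from it serve in killing microbes and in signalling, and loss of the enzyme causes chronic granulomatous disease.

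Levels are given as CPM, the count relative to the library's total after TMM scaling between libraries. Gene totals were 25199667 to 27485129 reads in the KO libraries and 17780707 to 27104205 in the WT libraries. Egfr, the targeted gene, was at 18.5, 15.9 and 17.4 CPM in KO and at 54.7, 43.0 and 44.7 CPM in WT. Lyz2, the lysozyme gene of myeloid cells, was at 18.6 ± 1.06 CPM in KO and 5034 ± 1449 CPM in WT (SD, n = 3 each). KO and WT thus differed in Lyz2 as well as in Egfr, and effects of these differences cannot be told apart in this design. Itgam, which encodes Cd11b, was counted in every pool, at 149 ± 28.1 CPM in KO and 104 ± 31.6 CPM in WT (SD, n = 3 each). WT replicate 1 stood apart from the other WT pools: the chi-square of its counts against theirs, divided by its degrees of freedom, was 69.8 and 76.5, against 41.7 between WT replicates 2 and 3 and 34.7 to 41.1 between KO pools. The tests of the oxidase genes are therefore given with and without that pool.

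All 5 oxidase genes had higher mean levels in KO, by 1.29 to 1.40 times, and none passed the test over all genes. The edgeR quasi-likelihood test with Benjamini-Hochberg adjustment called 0 of the 5 at an adjusted p under 0.05, and 0.0127% of the 15707 genes tested were called, all lower in KO. The genes called were Lyz2 (edgeR adjusted p = 0.000178) and Egfr (edgeR adjusted p = 0.0449). DESeq2, which called 0.586% of 28992 genes higher and 2.28% lower, and limma-voom, which called 0.00637% of 15707 in either direction, also called 0 of the 5. At an unadjusted p under 0.05 Cyba alone passed in edgeR with its filter and TMM, as did 4.77% of all genes on the higher side. That count was 4 of the 5 without the filter (3.23% of 29010 genes) and 3 of the 5 with library totals in place of TMM (4.16% of 15707). The 29010 genes include the low-count genes that the filter leaves out, so these shares are not on the same set of genes. The median log2 fold change of the 5 genes was 0.41, and that of all genes tested was 0.007. Without WT replicate 1 these medians were 0.62 and 0.004. WT replicate 1 had levels close to the KO pools for every one of the 5 genes, while WT replicates 2 and 3 were lower. Without WT replicate 1 edgeR called 4 of the 5 higher in KO, where 2.33% of 16116 genes were called higher. Leaving out the WT pool nearest to KO raised the log2 fold change and lowered the SE of every one of the 5 genes. These calls therefore depend on that choice of pools and are no separate support for a difference. Leaving out any pool other than WT replicate 1 gave 0 calls among the 5. Each of those fits called only 1 or 2 of all genes, so this count says little about the oxidase genes.

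Cybb, which encodes the electron-carrying subunit, was at 955, 932 and 969 CPM in the KO pools and at 908, 655 and 646 CPM in the WT pools. Every KO pool lay above every WT pool, by a narrow margin over WT replicate 1. The KO mean was 951.9 ± 18.5 CPM and the WT mean 737 ± 149 CPM (SD, n = 3 each). edgeR gave a log2 fold change of 0.37 with an SE of 0.18 (adjusted p = 0.367), and without WT replicate 1 it was 0.55 (SE 0.13, adjusted p = 0.0450). Cybb (ENSMUSG00000015340) lies on chromosome X at 9435252 to 9487771 of GRCm38, on the minus strand, and no other annotated gene overlaps it.

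Cyba, the stabilising partner, was at 303, 313 and 323 CPM in the KO pools and at 296, 203 and 206 CPM in the WT pools. Again every KO pool lay above every WT pool, with WT replicate 1 just below. Cybb and Cyba were thus the 2 of 5 genes whose groups did not overlap, and 9.59% of all genes tested had every KO pool above every WT pool. For Cyba the log2 fold change reached 0.41 with an SE of 0.17 (edgeR adjusted p = 0.304) over all pools and 0.62 (SE 0.12, adjusted p = 0.0246) without WT replicate 1. Cyba (ENSMUSG00000006519) lies on chromosome 8 at 122424776 to 122432930, minus strand. The predicted gene Gm20388 overlaps it on the other strand and had 0 reads counted in every library. Reads that fall on both genes may have been set aside as ambiguous, so this 0 does not show that the Cyba count was unaffected.

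Ncf1, the organiser subunit, was at 353, 307 and 275 CPM in the KO pools and at 299.6, 184 and 187 CPM in the WT pools. The groups overlapped, since WT replicate 1 exceeded KO replicate 3. Its log2 fold change of 0.48, with an SE of 0.21 (edgeR adjusted p = 0.337), was the highest of the 5, and without WT replicate 1 it was 0.75 (SE 0.14, adjusted p = 0.0252). Ncf1 (ENSMUSG00000015950) lies on chromosome 5 at 134220053 to 134229625, minus strand. Gtf2ird2 overlaps it on the other strand, at 10.3 ± 1.43 CPM in KO and 9.997 ± 0.460 CPM in WT (SD, n = 3 each). The libraries came from a directional kit, but whether the counting used the strand is not stated, so reads of the shared stretch may not be told apart.

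Ncf4, the phosphoinositide-binding subunit and the least counted of the 5, was at 116, 102 and 107 CPM in the KO pools and at 112, 63.1 and 69.3 CPM in the WT pools. WT replicate 1 exceeded KO replicates 2 and 3, so the groups overlapped. KO exceeded WT by a log2 fold change of 0.41 with an SE of 0.21 (edgeR adjusted p = 0.400), and of 0.72 (SE 0.12, adjusted p = 0.0186) without WT replicate 1. Ncf4 (ENSMUSG00000071715) lies on chromosome 15 at 78244801 to 78262580, plus strand.

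Rac2, the GTPase of blood cells, was at 323, 259 and 249.8 CPM in the KO pools and at 264, 209.8 and 156 CPM in the WT pools. KO replicate 1 was highest and WT replicate 3 lowest, and WT replicate 1 lay within the KO range. The estimate was a log2 fold change of 0.40 with an SE of 0.21 (edgeR adjusted p = 0.400). Rac2 was the 1 gene of the 5 that did not pass without WT replicate 1, with 0.61 (SE 0.18, adjusted p = 0.0853). Rac2 (ENSMUSG00000033220) lies on chromosome 15 at 78559167 to 78572783, minus strand, 297 kb from Ncf4.

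**Figure D1:**
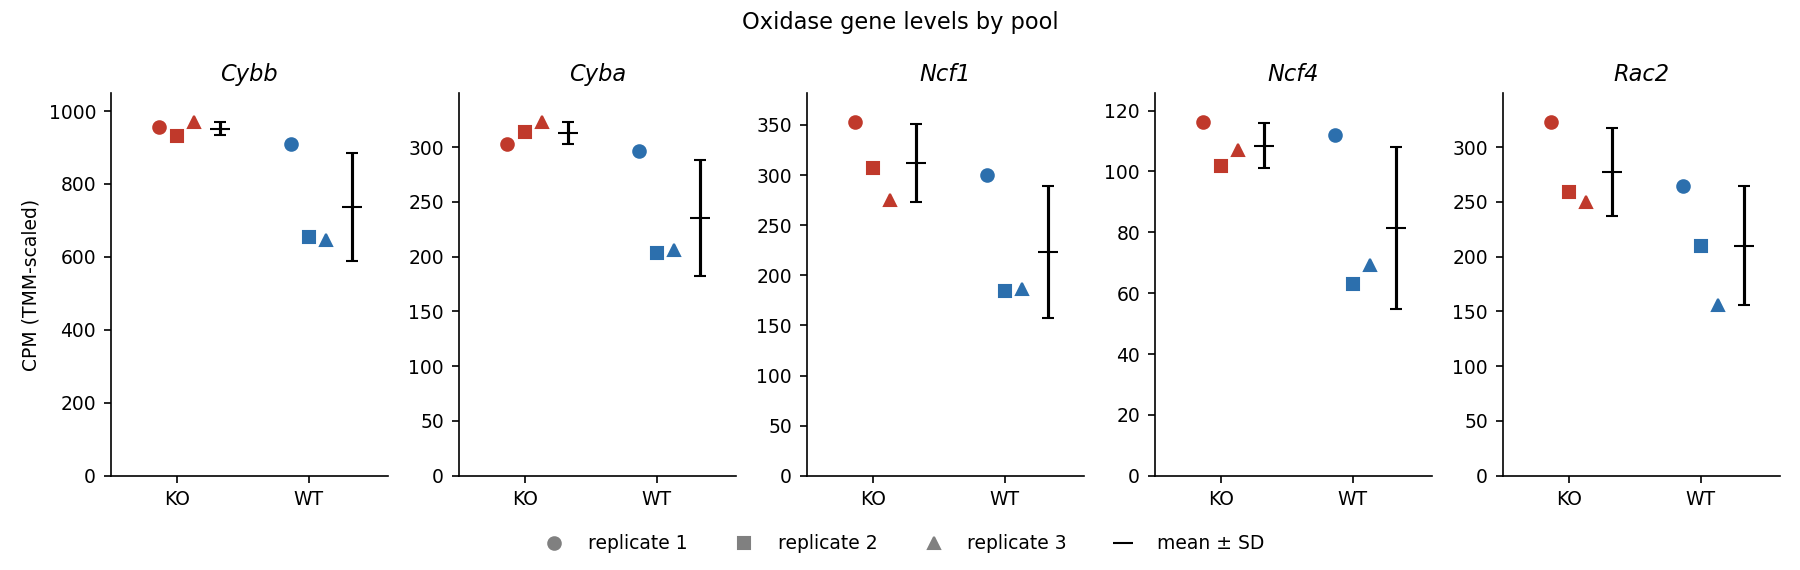
TMM-scaled CPM (y axis) of each oxidase gene in the 3 KO pools and the 3 WT pools, with marker shape for the replicate number and black marks for the mean ± SD. In every panel WT replicate 1 sits near the KO pools and WT replicates 2 and 3 lie lower; for Cybb they are at 655 and 646 CPM, against 932 to 969 CPM in KO.

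Sequences before the transcription start were found in RefSeq (build GRCm38.p6) for 3 of the 5 genes, Cybb, Cyba and Ncf1. They are shown because Cybb and Cyba, the pair with the most similar pattern over the pools, shared none of the motifs searched, and Ncf1 is the third gene with an entry. The windows of 250 bases before to 50 after the start were searched on both strands for GAGGAA (a core recognised by PU.1), the composite site of PU.1 and an interferon regulatory factor (GGAA, any 2 bases, GAAA), CCAAT (the CCAAT box) and GGGCGG (the GC box recognised by Sp1). Among 32851 such windows of the genome, 28.3% held GAGGAA, 2.72% the composite, 37.4% CCAAT and 35.7% GGGCGG. Matches are in capitals, read 5′ to 3′ on the gene's own strand, the minus strand for all 3.
Cybb, chrX:9469302-9469331, base -7 to 23 around the start: aagctgctgtTTTCATTTCCTCatcagaag
Cybb, chrX:9469325-9469474, the 150 bases before the start: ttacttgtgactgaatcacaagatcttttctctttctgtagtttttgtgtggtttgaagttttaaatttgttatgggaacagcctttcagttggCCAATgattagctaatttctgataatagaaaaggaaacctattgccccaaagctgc
Cyba, chr8:122432941-122433090, the 150 bases before the start: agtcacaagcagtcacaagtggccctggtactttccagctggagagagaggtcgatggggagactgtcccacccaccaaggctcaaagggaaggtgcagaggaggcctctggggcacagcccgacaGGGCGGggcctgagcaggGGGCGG
Ncf1, chr5:134229626-134229775, the 150 bases before the start: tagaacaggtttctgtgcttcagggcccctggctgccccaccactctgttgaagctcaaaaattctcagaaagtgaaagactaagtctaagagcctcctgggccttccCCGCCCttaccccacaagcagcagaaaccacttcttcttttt
The Cybb window held GAGGAA at bases 10 to 15 and the composite at bases 4 to 13 after the start, both on the strand opposite to the gene and overlapping each other, and 1 CCAAT at -56 to -52. The Cyba window held 2 GGGCGG matches, at -24 to -19 and -6 to -1, and the Ncf1 window 1 at -42 to -37 on the opposite strand. Neither window held GAGGAA or the composite. CCAAT and GGGCGG were added after the sequences were read, so the motifs compared were partly chosen from these same sequences. The GENCODE model of Cybb begins further upstream than the RefSeq start used for this window. A match describes letters only, and binding was not measured.

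The spread within a group was unequal. The coefficient of variation across KO pools was 1.94% for Cybb, 3.18% for Cyba, 6.74% for Ncf4, 12.6% for Ncf1 and 14.4% for Rac2. Across WT pools it was 20.2% for Cybb, 22.5% for Cyba, 32.7% for Ncf4, 29.5% for Ncf1 and 25.9% for Rac2. The membrane pair was therefore the steadiest in KO, and each of the 5 genes varied more among WT pools. WT replicate 1 exceeded the mean of the other WT pools by 1.40 times for Cybb, 1.45 times for Cyba, 1.61 times for Ncf1, 1.69 times for Ncf4 and 1.45 times for Rac2. Together the 5 genes took 0.195%, 0.193% and 0.191% of the gene reads in the KO pools and 0.180%, 0.142% and 0.127% in the WT pools.

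Per kilobase of exon, the levels fell into an order led by the membrane core. Cyba was highest, at 301 ± 9.59 CPM per kilobase in KO and 226 ± 50.9 in WT, and Cybb next, at 164 ± 3.18 in KO and 127 ± 25.6 in WT (SD, n = 3 each). Rac2 followed at 89.3 ± 12.9 in KO and 67.6 ± 17.5 in WT, beside Ncf1 at 85.2 ± 10.7 in KO and 61.0 ± 18.0 in WT. Rac2 and Ncf1 were closer than their spread, and they changed places when the longest coding transcript was used as the length in place of all exons. Ncf4 was lowest, at 53.7 ± 3.62 CPM per kilobase in KO and 40.3 ± 13.2 in WT. Rac1, the widely expressed relative of Rac2 that can also serve the oxidase, was at 104 ± 3.15 CPM per kilobase in KO and 86.9 ± 6.29 in WT.

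Ratios of subunits within a library do not depend on how libraries are scaled against each other. Cyba counts over Cybb counts were 0.317, 0.336 and 0.333 in the KO pools and 0.326, 0.310 and 0.319 in the WT pools. This membrane pair kept nearly the same proportion in all 6 pools, and the KO and WT ranges overlapped. The log2 ratio differed by 0.05 between KO and WT (exact permutation test, two-sided p = 0.3). Ncf1 counts over Ncf4 counts were 3.04, 3.02 and 2.57 in KO and 2.67, 2.92 and 2.70 in WT, a log2 difference of 0.05 (exact permutation p = 0.8). Rac2 counts over Rac1 counts were 0.685, 0.538 and 0.551 in KO and 0.632, 0.580 and 0.396 in WT, a log2 difference of 0.16 (exact permutation p = 0.6). None of the 3 ratios differed beyond the spread between pools, all with a p of 0.8 after adjustment over the 3, and with 3 pools against 3 the test cannot go below 0.1. Without WT replicate 3, which had the lowest Rac2 over Rac1 ratio, that log2 difference was -0.04.

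Over the 6 pools, Cybb and Cyba were the pair most alike. Their log2 CPM, centred on each gene, differed by a root mean square of 0.041, against 0.093 for Ncf1 and Ncf4 and 0.112 to 0.193 for the other pairs of members. Among 9242 other genes at a mean of at least 10 CPM, the nearest to Cybb by this measure were P2rx4 (an ATP-gated channel, 0.041), Prdx5 (a peroxiredoxin, 0.042) and Grb2 (an adaptor of receptor tyrosine kinases, 0.045). Nearest to Cyba were Tmem192 (a lysosomal membrane protein, 0.029), Syngr2 (0.046) and Cd48 (a leukocyte surface glycoprotein, 0.047). For Ncf1 they were Rasgrp4 (0.042), Gas7 (0.043) and Bst1 (0.045), and for Ncf4 Alox5ap (the 5-lipoxygenase activating protein, 0.032), Spi1 (the myeloid transcription factor PU.1, 0.036) and Adgre1 (the macrophage marker F4/80, 0.037). Rac2 stood further from its neighbours Trim30d (0.052), Selplg (the selectin ligand PSGL-1, 0.057) and Gpsm3 (0.073). These distances describe 6 libraries that share WT replicate 1, and the correlation coefficient as the measure gave 0 or 1 of the same 3 genes for each member.

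Sums of pan-leukocyte and macrophage markers, like that of the oxidase genes, were higher in WT replicate 1 than in the other WT pools. The order of pools was not the same throughout. Macrophage sums were highest in KO replicate 3 and lowest in WT replicate 2. Oxidase and pan-leukocyte sums were highest in KO replicate 1 and lowest in WT replicate 3. The summed level of the 5 oxidase genes was 2050, 1913 and 1924 CPM in KO and 1881, 1316 and 1264 CPM in WT. The 10 pan-leukocyte genes include Ptprc (CD45) and Lcp1 (L-plastin). They summed to 7641, 6660 and 6364 CPM in KO and 6601, 5007 and 4451 CPM in WT. Evi2b of this list had no read counted in any library. Evi2 overlaps it on the same strand, and whether its reads were set aside as ambiguous was not tested. The 13 macrophage markers summed to 14674, 14587 and 15498 CPM in KO and 14797, 8051 and 9918 CPM in WT. In both lists WT replicate 1 lay at the KO level, as it did for the oxidase genes. All 13 macrophage genes had positive log2 fold changes (median 0.50), as did all 9 pan-leukocyte genes tested (median 0.32), and 0 of either list passed in edgeR. Without WT replicate 1 the medians were 0.78 and 0.53. In that fit edgeR called 8 of the 13 macrophage and 2 of the 9 pan-leukocyte genes higher, beside 4 of the 5 oxidase genes and 2.33% of 16116 genes. These calls too depend on leaving out the WT pool that lay at the KO level.

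Markers of vessel and connective tissue ran the other way. The 10 endothelial markers summed to 1117 to 1444 CPM in KO and 2045 to 3412 CPM in WT, with 10 of 10 at negative log2 fold changes. The 7 fibroblast markers summed to 1330 to 1991 CPM in KO and 1768 to 5664 CPM in WT, with 7 of 7 negative. None of these 17 genes passed in edgeR with all pools, and without WT replicate 1 all 7 fibroblast and 9 of the 10 endothelial genes were called lower in KO, as were 5.97% of all genes. The 9 neutrophil markers summed to 2983, 827 and 859 CPM in KO and 2444, 1213 and 649 CPM in WT, so that KO replicate 1 and WT replicate 1 were the highest in their groups, as they were for Ncf1, Ncf4 and Rac2. That sum was carried by S100a8, S100a9, Csf3r and Mmp9. The granule genes Camp, Ltf and Ngp of the same list were highest in KO replicate 3 and WT replicate 1, with log2 fold changes of -2.35, -2.15 and -1.97 that did not pass in edgeR (adjusted p = 0.227 to 0.269). Markers of B cells, which also express Rac2, summed to 416 to 690.2 CPM in KO and 316 to 404 CPM in WT. Monocyte markers summed to 2750 to 2925 CPM in KO and 2155 to 3203 CPM in WT, dendritic cell markers to 216 to 281 CPM in KO and 137 to 212 CPM in WT, T and NK cell markers to 11.4 to 44.4 CPM in KO and 6.31 to 103 CPM in WT, and cardiomyocyte markers to 160.2 to 283 CPM in KO and 223 to 377 CPM in WT. F13a1, at a mean of 1958 CPM over the 6 libraries, gave most of the monocyte sum. Of the 8 monocyte markers, 4 had positive and 4 had negative log2 fold changes. Of the B cell markers, 5 were positive and 1, Ebf1 at -0.42, was negative. No defining marker of these 8 lists was at 0 in every library, and their part in the oxidase levels was not tested. In bulk RNA a change in the number of cells of a type and a change in RNA per cell cannot be told apart.

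**Figure D2:**
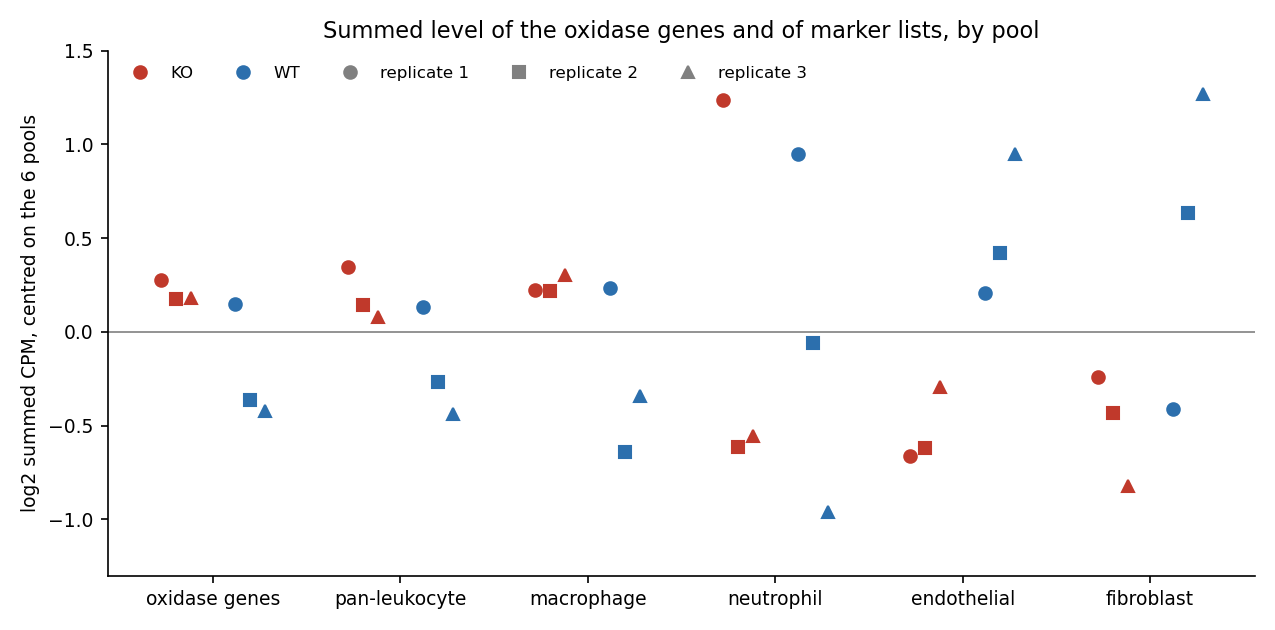
Summed CPM of the 5 oxidase genes and of 5 marker lists in each pool, on a log2 scale centred on the 6 pools (y axis), with KO pools left of WT pools in each column and marker shape for the replicate number. In the oxidase, pan-leukocyte and macrophage sums WT replicate 1 is at the KO level, although the order of pools differs between them. Endothelial sums are lower in all 3 KO pools.

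Set against leukocyte RNA, the oxidase genes were at similar levels in both groups. Per 1000 reads of the pan-leukocyte genes, Cybb had 125, 139.95 and 152 reads in the KO pools and 138, 131 and 145 in the WT pools. Cyba had 39.7, 47.1 and 50.7 reads in KO and 44.9, 40.6 and 46.4 in WT. On this scale WT replicate 1 no longer stood above the other WT pools for Cybb or Cyba, and the groups overlapped for both.

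For the regulators the groups overlapped too. Ncf1 had 46.2, 46.2 and 43.2 reads per 1000 pan-leukocyte reads in KO and 45.4, 36.8 and 42.0 in WT. Ncf4 had 15.2, 15.3 and 16.8 in KO and 17.0, 12.6 and 15.6 in WT. Rac2 had 42.3, 38.8 and 39.3 in KO and 40.0, 41.9 and 35.0 in WT. WT replicate 1 was still the highest WT pool for Ncf1 and Ncf4, and not for Rac2. The groups overlapped for all 5 genes, with KO means 1.01 to 1.09 times the WT means.

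**Figure D3:**
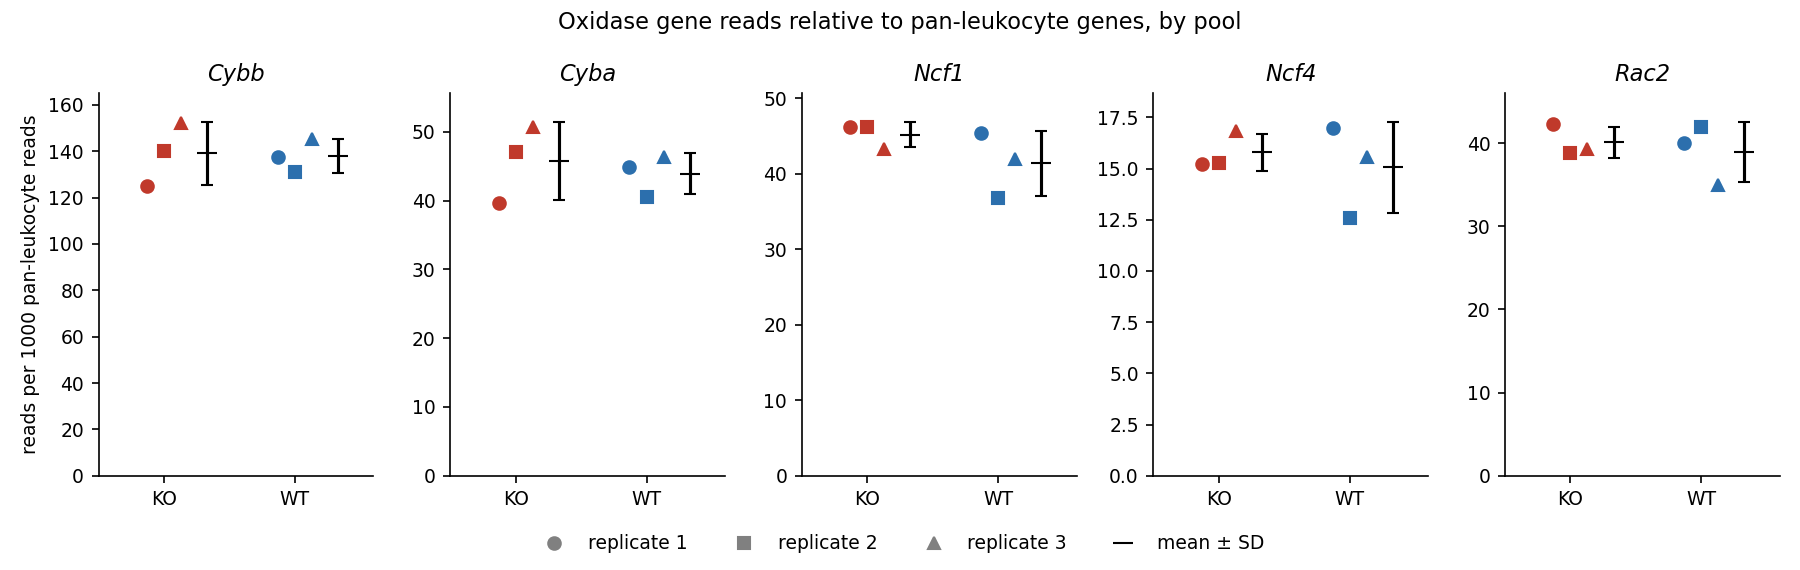
Reads of each oxidase gene per 1000 reads of the 10 pan-leukocyte genes (y axis) in the 3 KO pools and the 3 WT pools, with marker shape for the replicate number and black marks for the mean ± SD. The KO and WT points overlap in every panel; Cybb is at 125 to 152 in KO and 131 to 145 in WT.

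With libraries scaled to the pan-leukocyte genes in place of TMM, the edgeR log2 fold changes were 0.01 for Cybb, 0.06 for Cyba, 0.13 for Ncf1, 0.07 for Ncf4 and 0.04 for Rac2, with SEs of 0.20 to 0.21 and adjusted p-values of 0.655 to 0.968. This scaling moved all genes by a similar amount and put their median at -0.39, against 0.007 under TMM. The place of the oxidase genes above that median was therefore nearly fixed in advance. It called 0 of the 5, with 0.28% of all genes called higher and 6.55% lower. The same scaling without WT replicate 1 was a combination added after the data were seen. It gave 0.01 for Cybb to 0.20 for Ncf1 and no call among the 5 genes (edgeR adjusted p = 0.393 to 0.970). In that fit 31.9% of all genes were called in either direction. Scaled to the 13 macrophage markers, an alternative added after the data were seen, the values were -0.12 to 0.02 (adjusted p = 0.653 to 0.945), again with 0 of the 5 and 9.86% of all genes called, and the median of all genes was -0.53. Of the 5 genes, 4 were below 0 under the macrophage scaling and Ncf1 was not. All 5 lay above the median of all genes, which a rescaling of libraries can hardly change. That place is no separate support for a difference. A p above the threshold does not show that the levels were equal.

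**Figure D4:**
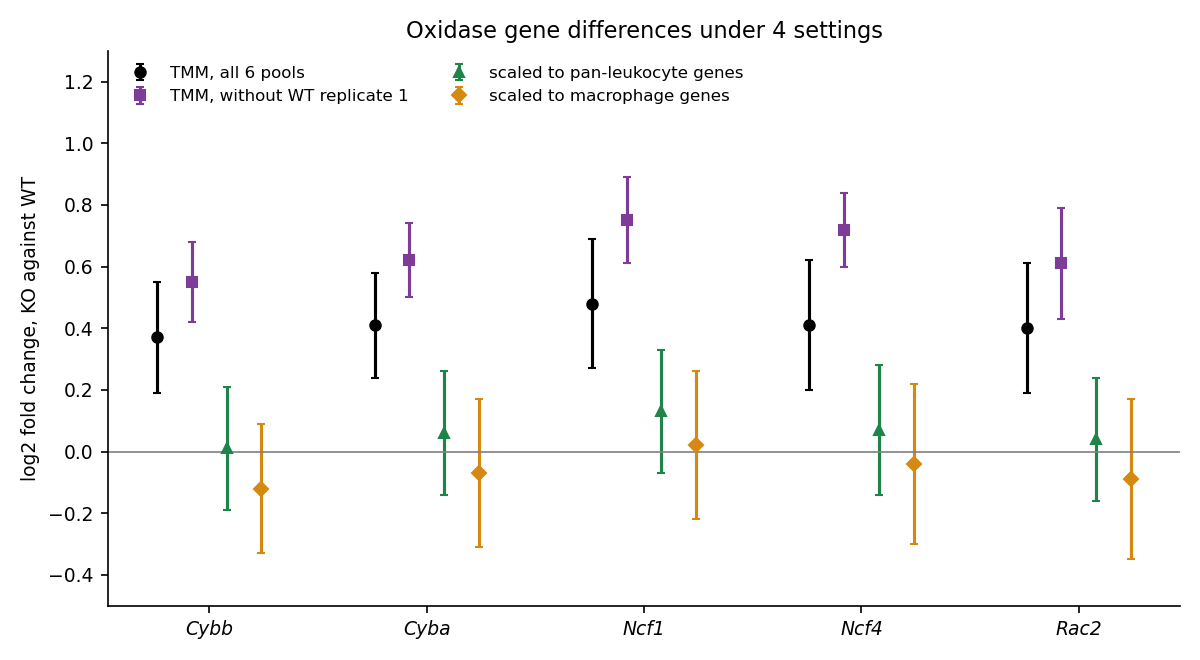
Log2 fold change of each oxidase gene, KO against WT (y axis, bars show the SE), under TMM scaling with all 6 pools, TMM without WT replicate 1, and scaling to pan-leukocyte or macrophage genes. The values are 0.37 to 0.48 with all pools, 0.55 to 0.75 without WT replicate 1, and -0.12 to 0.13 under the scalings to cell markers.

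Genes that activate or support the oxidase had positive log2 fold changes in 16 of 16 cases, with a median of 0.26, and 0 passed in edgeR. In 6 of the 16 every KO pool lay above every WT pool, as in 9.59% of all genes. Without WT replicate 1 edgeR called 3 of the 16 higher, where 2.33% of 16116 genes were called higher. Cybc1, the chaperone that stabilises the membrane heterodimer, was at 152, 135 and 104 CPM in KO and at 84.8, 83.8 and 78.5 CPM in WT. Its log2 fold change stood at 0.66 with an SE of 0.15 (edgeR adjusted p = 0.180), and in contrast to the 5 oxidase genes WT replicate 1 stood with the other WT pools. DESeq2 called it higher in KO (adjusted p = 0.00813), edgeR without its filter, which called 0.479% of 29010 genes higher, did too (adjusted p = 0.0195), and without WT replicate 1 edgeR did not (0.69, adjusted p = 0.0525). Hexdc overlaps Cybc1 on the other strand of chromosome 11.

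Hvcn1, the proton channel that balances the charge moved by the oxidase, was at 77.0, 93.2 and 66.4 CPM in KO and at 55.7, 43.1 and 37.8 CPM in WT. Its log2 fold change of 0.79, with an SE of 0.18 (edgeR adjusted p = 0.183), passed in DESeq2 (adjusted p = 0.00770) and without WT replicate 1 (0.97, edgeR adjusted p = 0.0200). Tctn1 overlaps Hvcn1 on the other strand of chromosome 5. B cells also express Hvcn1, and KO replicate 2 held both the highest Hvcn1 level and the highest sum of B cell markers, whose part in the Hvcn1 level was not tested. Pak1, a kinase downstream of Rac, was at 60.1 ± 2.33 CPM in KO and 41.8 ± 5.55 CPM in WT (SD, n = 3 each), and Prkcd, a kinase that phosphorylates p47phox, at 403 ± 30.3 CPM in KO and 290.3 ± 56.4 CPM in WT. Neither passed in edgeR with all pools (adjusted p = 0.183 and 0.248), DESeq2 called Pak1 higher (adjusted p = 0.0251), and without WT replicate 1 both did (0.64 for Pak1, adjusted p = 0.0209, and 0.65 for Prkcd, adjusted p = 0.0282). Scaled to the pan-leukocyte genes, the log2 fold changes were 0.26 for Cybc1, 0.44 for Hvcn1, 0.15 for Pak1 and 0.11 for Prkcd, with no call, and the list's median was -0.10, above the -0.39 of all genes.

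Other NADPH oxidases were scarce in this preparation. Of 9 genes, 5 passed the filter on low counts, and Nox3, the oxidase of the inner ear, had no read. Nox4, which makes hydrogen peroxide in vessel and connective tissue cells, was at 3.29, 2.32 and 3.49 CPM in KO and at 2.58, 5.11 and 10.3 CPM in WT, and WT replicate 3 was also the pool with the highest fibroblast and endothelial sums, whose part in the Nox4 level was not tested. Its log2 fold change stood at -0.98 with an SE of 0.47 (edgeR adjusted p = 0.367), and without WT replicate 3 it was -0.33. The epithelial oxidase Duox1 was at 1.47 ± 0.38 CPM in KO and 2.66 ± 1.45 CPM in WT, and the organiser Noxo1 at 2.17 ± 0.14 CPM in KO and 2.03 ± 0.18 CPM in WT (SD, n = 3 each). The summed level of all 9 was 7.58 to 8.48 CPM in KO and 7.20 to 20.2 CPM in WT, far below the 5 phagocyte oxidase genes, without a correction for length.

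Among enzymes that take up superoxide and peroxide, 3 of 5 tested genes had positive and 2 had negative log2 fold changes (median 0.02), and 0 passed in edgeR. Sod3, the extracellular superoxide dismutase made largely by vessel wall cells and fibroblasts, was at 55.3, 44.3 and 52.95 CPM in KO and at 63.0, 91.2 and 146 CPM in WT, with every KO pool below every WT pool, as in 10.1% of all genes. Its log2 fold change stood at -0.98 with an SE of 0.28 (edgeR adjusted p = 0.219), and it was called lower by DESeq2 (adjusted p = 0.0175) and without WT replicate 1 (-1.22, edgeR adjusted p = 0.0187). Without WT replicate 3 it was -0.60. The peroxidase gene Gpx1 was at 0.28 (SE 0.18), or 0.48 without WT replicate 1, the catalase gene Cat at 0.13 (SE 0.11) and the mitochondrial Sod2 at -0.03 (SE 0.16). Mpo, the neutrophil enzyme that turns hydrogen peroxide into hypochlorous acid, was below the filter, at 0 to 0.39 CPM in KO and 0.05 to 3.27 CPM in WT.

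Of 8 transcription factors of myeloid cells, 4 had positive and 4 negative log2 fold changes (median 0.11), and 0 passed in edgeR. Spi1, which encodes PU.1, the factor that recognises the core GAGGAA found just after the Cybb start, was at 325, 276 and 286 CPM in KO and at 290.5, 174 and 191 CPM in WT. WT replicate 1 lay within the KO range, the pattern already seen for Ncf4, and the log2 fold change reached 0.43 with an SE of 0.20 (edgeR adjusted p = 0.359), or 0.70 without WT replicate 1 (adjusted p = 0.0251). The log2 fold changes of Irf8 and Cebpa were 0.29 (SE 0.15) and 0.31 (SE 0.20), and without WT replicate 1 that of Cebpa was 0.53. That of the granulocyte factor Cebpe, at 0.90 ± 0.25 CPM in KO and 1.55 ± 0.90 CPM in WT (SD, n = 3 each), was -0.79 (SE 0.50), or -0.24 without WT replicate 1. The list's median was 0.28 without that pool.

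**Figure D5:**
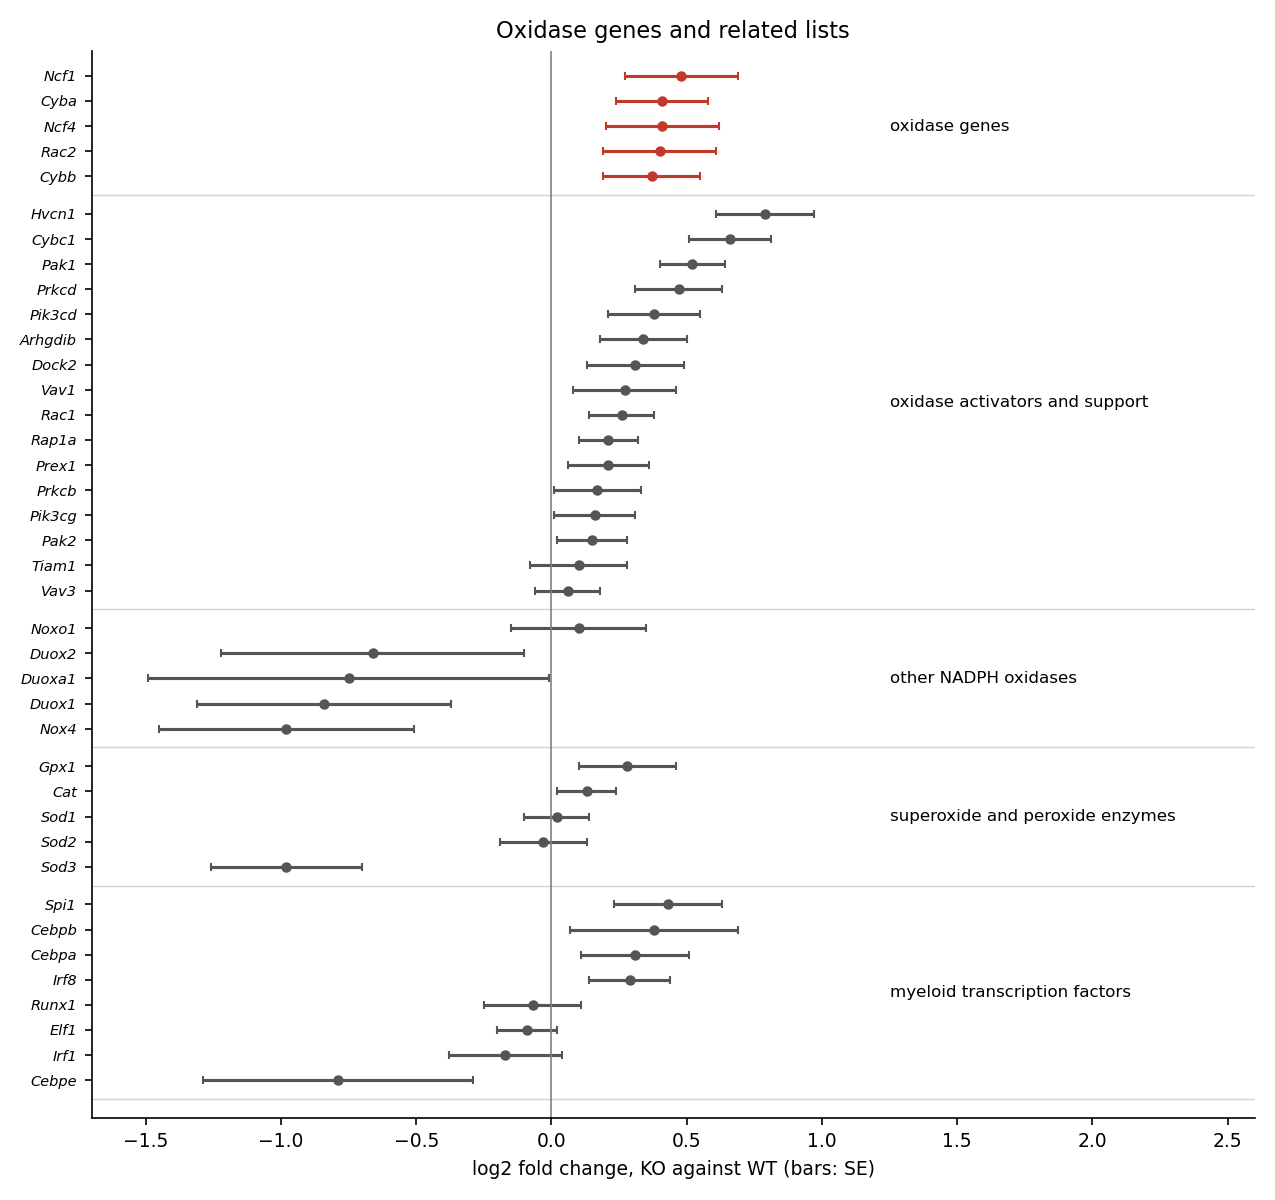
Log2 fold change, KO against WT (x axis, bars show the SE), of the 5 oxidase genes (red, top) and of the tested genes in 4 related lists (grey). All 5 oxidase genes and all 16 activator and support genes lie above 0, and 4 of the 5 other oxidases tested lie below it.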

How the data were processed

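For each of the 6 libraries the authors deposited raw read counts by Ensembl gene, with no normalization. The submitters' processing notes name STAR, HTSeq, DESeq2 and, as the build, GRCm38. The 5 counters that name no gene (no feature 5.90% to 8.62%, ambiguous 1.49% to 1.72%, several places 7.58% to 8.67% of counted reads, the others 0) were left out. Symbols were found for 55141 of 55487 identifiers. Coordinates and exon lengths are from GENCODE M21, promoter sequences from RefSeq.

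KO was compared with WT in edgeR 4.0.16 (R 4.3.3; filterByExpr with minimum count 10, TMM, quasi-likelihood F test, two-sided, Benjamini-Hochberg over 15707 genes, threshold 0.05). An SE is the change over the square root of F. Alternatives used DESeq2 1.42.0, limma-voom 3.58.1, other scalings and filters, a replicate block and each library left out. The procedure was run on simulated counts with the same dispersion for every gene and no pool set apart. That run therefore does not measure how the tests perform on these data. Figures used matplotlib 3.10.9.

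The oxidase genes and the lists were chosen with earlier results of these data known. Besides the 5 genes, Egfr, Lyz2 and Itgam, the text names up to 4 genes of each related list by smallest p among those averaging 1 CPM or more, and the 3 genes nearest in pattern to each oxidase gene; other genes serve as markers or were named after their values were seen. A member of the transcription factor list is not reported here, and its counts and median leave it out. CCAAT and GGGCGG were added to the motifs after the sequences were read.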

Additional observations from a re-analysis of the deposited data

How the results depend on the processing

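Of 80 log2 fold changes of the 5 oxidase genes under 16 alternatives, 76 were above 0, and 4 passed the threshold, all without WT replicate 1. Among these alternatives, the macrophage scaling and the pan-leukocyte scaling without WT replicate 1 were added after the data were seen. The 4 below 0, all above that scaling's median of all genes (-0.53), came from scaling to the macrophage markers: -0.12 for Cybb, -0.07 for Cyba, -0.04 for Ncf4 and -0.09 for Rac2. Leaving out 1 library gave 0.29 to 0.55 for Cybb, 0.31 to 0.62 for Cyba, 0.35 to 0.75 for Ncf1, 0.25 to 0.72 for Ncf4 and 0.23 to 0.61 for Rac2, and 0 to 4 of the 5 genes past the threshold.

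Over all genes, 2 passed, against 1073 scaled to pan-leukocyte genes, 782 without the filter, 831 in DESeq2, 1 in limma-voom and 1 to 1338 on leaving out 1 library; the cause was not tested. The Rac2 over Rac1 log2 ratio ranged from -0.0434 to 0.2947 on leaving out 1 library. Scaling to pan-leukocyte genes put Noxo1 (-0.30), Gpx1 (-0.08), Cat (-0.26), Irf8 (-0.09) and Cebpa (-0.06) below 0. It moved all genes down by a similar amount, with their median at -0.39. Sod2 ranged from -0.18 to 0.09 on leaving out 1 library.

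The replicate numbers did not pair the samples: deviations of same-numbered pools correlated at 0.0968, -0.16 and 0.00601, and KO replicates 2 and 3 did not correlate best with their own number. With the replicate block, values were 0.39 for Cybb, 0.43 for Cyba, 0.51 for Ncf1, 0.46 for Ncf4 and 0.42 for Rac2 (edgeR adjusted p = 0.160 to 0.296). In this fit 0 of the 5 and 3 of all genes passed the threshold. At an unadjusted p under 0.05 there were 5 of the 5, but the share of all genes at that p was not taken, so this count has no background. Blocked log2 ratios were 0.0462, 0.0540 and 0.1614 for Cyba over Cybb, Ncf1 over Ncf4 and Rac2 over Rac1. At 1211 to 25000 reads per oxidase gene and library, the spread between pools and not depth limits these values.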
